A study of Mus musculus with 13 samples.

Results

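In livers of male mice labelled control, 39458 binding sites of the nuclear receptor corepressor NCOR1 were called after vehicle injection, and 6429 of them (16.3%) were also called after dexamethasone and again in livers labelled dKO. These persisting sites are the subject here. A control vehicle peak counted as persisting when it overlapped by at least 1 bp a peak of the NCOR1 control dexamethasone list and a peak of the NCOR1 dKO vehicle list. They made up 37.2% of the 17282 peaks of the dKO list, 79.4% of the 8097 control vehicle peaks found in dKO, and 24.2% of the 26532 found after dexamethasone, which were 67.2% of the list. The remaining control vehicle peaks were 20103 found in both control lists but not in dKO, called non-persisting sites below, 1668 found in dKO but not after dexamethasone, and 11258 found after vehicle only.

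The study mapped NCOR1 and the glucocorticoid receptor (GR) by chromatin immunoprecipitation and sequencing. Control animals carry the genotype label GFP and dKO animals the label CRE, a knockout that includes NCOR1 per the series text. Vehicle, named saline in the series text, or 1 mg/kg of the synthetic glucocorticoid dexamethasone was injected intraperitoneally at zeitgeber time 8 (hours on the light-dark clock), and livers were collected 2 h later, at zeitgeber time 10. For NCOR1 there was 1 library of vehicle-treated controls, 2 of dexamethasone-treated controls and 1 of vehicle-treated dKO livers. GR had 2 libraries in each of the 4 combinations of genotype and treatment. The age and strain of the animals, the promoter or vector that carries Cre, and the cells it reaches are not given in the sources used here.

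NCOR1 is a scaffold protein that binds nuclear receptors in their repressive state and brings the histone deacetylase HDAC3 to chromatin. In liver this complex sits at enhancers and promoters of lipid, bile acid and clock genes, where the receptors REV-ERB, thyroid hormone receptor and others recruit it. GR, the receptor for cortisol-like hormones, activates genes of glucose production in hepatocytes and restrains inflammatory ones.

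The label of the dKO livers was checked on NCOR1 itself. Peaks held 8.52% of the tags (aligned reads) in control vehicle, 6.38% after dexamethasone and 2.07% in dKO, with 17.8 M, 36.9 M and 17.5 M tags behind these lists. NCOR1 peaks thus held a smaller share of tags in dKO, where 17282 were still called. The antibody was raised against residues 1944 to 2453 of NCOR1, and whether the deletion removes the part of the gene that codes for them is not given in the sources used here. Each list pools the libraries of its group, which leaves no measure of variation among animals, and every list, dKO included, was called against 1 input library from a control vehicle liver. Shares below carry 95% Clopper-Pearson intervals that cover counting error only.

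Promoter sequences are shown first because promoters with a persisting site above a dKO/control ratio of 0.5 differed in base composition and motif content from those at 0.25 or less. Each is the run of 250 bases before an annotated RefSeq start in assembly GRCm38.p6 (mm10), printed on the strand of the gene. The first 3 are the strongest promoters that hold a persisting site with a dKO/control ratio above 0.5 and an ETS motif, spelled CCGGAAG on either strand. The next 3 are the strongest with a ratio of 0.25 or less and a nuclear receptor half-site, spelled AGGTCA on either strand. H4c3, a histone H4 gene, has the highest NCOR1 tag count in dKO among starts with a persisting site. All 7 were chosen after their values were seen, and capitals mark ETS motifs, nuclear receptor half-sites, E-boxes (CACGTG) and CCAAT boxes. Capitals were set over the whole run of bases, and some lie outside the called peak. These are the ETS motif and E-boxes of Armt1, the downstream half-site of Upp2 and the upstream CCAAT box of Hgd. The upstream half-site of Upp2 lies across the edge of its peak and only in part within it.
Nfat5, chr8:107293220-107293469, plus strand: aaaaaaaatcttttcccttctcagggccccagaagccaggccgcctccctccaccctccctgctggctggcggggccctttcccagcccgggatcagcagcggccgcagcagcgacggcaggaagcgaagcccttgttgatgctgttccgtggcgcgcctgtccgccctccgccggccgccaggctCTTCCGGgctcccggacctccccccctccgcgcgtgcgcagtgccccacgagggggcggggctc
Dot1l, chr10:80754953-80755202, plus strand: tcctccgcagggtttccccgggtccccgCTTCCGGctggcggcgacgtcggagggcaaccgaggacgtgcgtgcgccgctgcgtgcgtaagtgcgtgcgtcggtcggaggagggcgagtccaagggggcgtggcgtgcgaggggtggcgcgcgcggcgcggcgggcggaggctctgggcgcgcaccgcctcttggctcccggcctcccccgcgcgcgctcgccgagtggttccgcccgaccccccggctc
Armt1, chr10:4432355-4432604, plus strand: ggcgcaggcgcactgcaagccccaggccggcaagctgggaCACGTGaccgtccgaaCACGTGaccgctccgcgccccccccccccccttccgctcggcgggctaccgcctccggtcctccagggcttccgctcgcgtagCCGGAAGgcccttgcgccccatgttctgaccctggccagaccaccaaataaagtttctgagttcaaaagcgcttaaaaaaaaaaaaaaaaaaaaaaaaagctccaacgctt
Hgd, chr16:37579903-37580152, plus strand: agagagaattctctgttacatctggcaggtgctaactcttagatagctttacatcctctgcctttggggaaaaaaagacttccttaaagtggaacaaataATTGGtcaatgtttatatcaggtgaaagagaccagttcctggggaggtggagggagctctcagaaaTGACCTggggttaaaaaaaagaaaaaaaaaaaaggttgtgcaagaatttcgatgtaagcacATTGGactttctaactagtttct
Nr6a1, chr2:38784516-38784765, minus strand: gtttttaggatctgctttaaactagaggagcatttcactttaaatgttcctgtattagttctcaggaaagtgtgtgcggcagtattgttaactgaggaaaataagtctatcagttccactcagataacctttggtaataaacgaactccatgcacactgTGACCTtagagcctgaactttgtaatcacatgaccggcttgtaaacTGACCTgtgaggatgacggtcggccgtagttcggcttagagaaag
Upp2, chr2:58754934-58755183, plus strand: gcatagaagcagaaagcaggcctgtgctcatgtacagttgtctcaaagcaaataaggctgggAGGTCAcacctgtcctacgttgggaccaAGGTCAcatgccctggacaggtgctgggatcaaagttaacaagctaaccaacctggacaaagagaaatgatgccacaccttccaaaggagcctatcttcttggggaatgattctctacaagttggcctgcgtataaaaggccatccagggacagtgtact
H4c3, chr13:23698459-23698708, minus strand: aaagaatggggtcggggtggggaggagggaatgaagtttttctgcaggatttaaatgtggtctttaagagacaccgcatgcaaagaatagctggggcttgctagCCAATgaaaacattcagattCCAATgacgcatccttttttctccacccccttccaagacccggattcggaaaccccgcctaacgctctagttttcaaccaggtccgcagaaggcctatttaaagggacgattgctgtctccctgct

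At the start of Nfat5, which encodes a transcription factor of the osmotic stress response, NCOR1 had 95.9 tags per 10 M in control vehicle, 93.3 after dexamethasone and 95.3 in dKO, a dKO/control ratio of 0.99. Dot1l, a histone H3 methyltransferase gene, had 50.6, 39.0 and 28.6 tags per 10 M in the same order, and Armt1 had 41.1, 27.8 and 26.6. At these 3 starts the dKO value was above 0.5 of the control vehicle value, by the choice made, and at Nfat5 it was nearly equal to it. At the start of Hgd, which encodes homogentisate dioxygenase of tyrosine breakdown, the 3 tag counts were 72.9, 56.8 and 8.87. Nr6a1, an orphan nuclear receptor gene, had 71.5, 30.6 and 9.45, and Upp2, a uridine phosphorylase gene, had 69.5, 40.1 and 7.73. In control vehicle these 3 starts lay between Nfat5 and Dot1l, and in dKO they lay just under the median of the dKO list, 10.0.

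The tag count is the authors' normalized value per peak, in tags per 10 M tags of the library. It corrects for depth and not for how well the immunoprecipitation worked, so a ratio between lists compares these libraries. Over the 6429 persisting sites the median was 18.3 tags per 10 M in control vehicle, 15.6 after dexamethasone and 11.7 in dKO. The dKO/control ratio had a median of 0.68, with 90% of sites between 0.13 and 2.28, and ran from 0.037 to 5.50. With every NCOR1 list taken at the length of the shortest, which keeps only stronger control peaks, the median was 0.34. The ratio was 0.5 or less at 2422 sites (37.7%) and 0.25 or less at 1123, against 31.5% at 0.5 or less among all control vehicle peaks found in dKO. It was 1 or more at 1874 sites (29.1%, against 34.8%) and 2 or more at 472 (7.34%, against 8.19%). Because the ratio was taken from the lists that chose the sites, these shares describe them and test nothing.

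**Figure D1:**
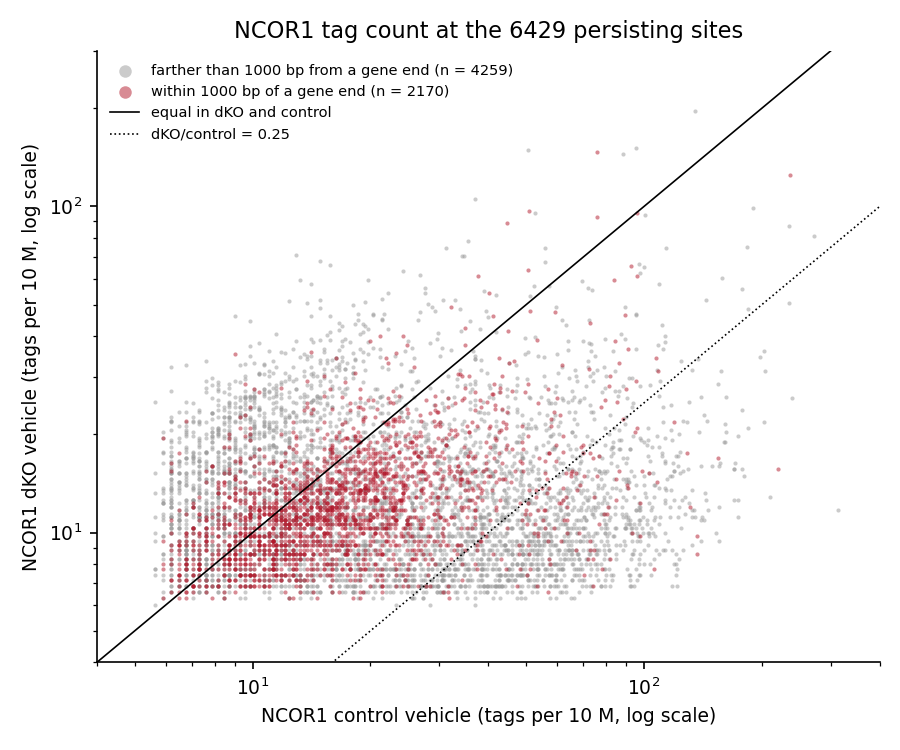
NCOR1 tag count of each persisting site in control vehicle (x axis) and dKO vehicle (y axis), both in tags per 10 M on log scales, with sites within 1000 bp of a protein-coding gene end in red and the others in grey. Most red points lie between the line of equality and the dotted line at a ratio of 0.25, and grey points lie more often beyond these lines.

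A site has to be called in dKO to persist, so a weak control peak could only enter with a high ratio. When the control vehicle list was divided into 5 equal classes of tag count, the median ratio of persisting sites fell from 1.47 in the weakest class to 1.05, 0.78, 0.52 and 0.22 in the strongest, an order that this entry rule sets in part. The share of control vehicle peaks that persisted was 11.4%, 14.5%, 15.7%, 15.5% and 24.4% across the same classes. Persisting and non-persisting sites had like strength by other measures, with a median of 18.3 against 18.8 tags per 10 M, 14.96-fold against 15.14-fold over input, and 9.80-fold against 10.0-fold over the surrounding 10 kb. The median input tag count was 2.3 in both.

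Most of the strongest persisting sites in control had low ratios. Of the 8 highest in control vehicle, 7 had a ratio below 0.5, while all 8 had a dKO tag count above the median of the dKO list. The highest lay 2.67 kb outside Ptgds, which encodes a prostaglandin D synthase, at chr2:25472675-25472875, with 313.1 tags per 10 M in control vehicle, 220.8 after dexamethasone and 11.7 in dKO. Its ratio of 0.037 was the lowest of all (exact 95% interval from counting error alone 0.022 to 0.057). The next, at chr11:44173216-44173416 with no gene within 100 kb, had 271.7, 190.3 and 81.0 tags per 10 M and a ratio of 0.30. Sites inside Csad, which encodes an enzyme of taurine synthesis, and Pdp2, which encodes a pyruvate dehydrogenase phosphatase, had 209.9 and 220.5 in control vehicle against 12.9 and 15.7 in dKO. Among the lowest ratios of all persisting sites were those inside 2 metabolic genes. Mlxipl, which encodes the carbohydrate-responsive factor ChREBP, went from 121.2 to 7.73, and Gpd2, the mitochondrial glycerol-3-phosphate dehydrogenase, from 117.9 to 6.87.

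Some strong sites kept more of their signal. Npas2, a paralog of CLOCK, had a site 0.842 kb outside its gene body with 236.3 tags per 10 M in control vehicle, 289.9 after dexamethasone and 124.8 in dKO (ratio 0.53, interval 0.45 to 0.62). Fcna, a ficolin gene, had 234.9, 184.7 and 87.0. Both were therefore among the strongest sites of control and far above the median of the dKO list. Among persisting sites the highest dKO tag counts were inside Fam227b (196.1), inside Ybx3 (150.8), 29.0 kb from Insc (149.4), beside H4c3 (146.6) and inside Acacb (144.6), and all 5 exceeded their control vehicle values of 135.3, 95.6, 50.6, 75.7 and 88.6. Histone H4 genes are near-identical copies of each other, so tags at H4c3 may belong to other copies.

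Distance to gene ends was not used to choose the sites. Of the persisting sites, 2170 lay within 1000 bp of either end of a protein-coding gene, or 33.8% (32.6 to 34.9), against 18.9% of all control vehicle peaks. Among non-persisting sites the share was 12.5% (12.05 to 12.97), a difference of 21.3 percentage points (20.0 to 22.5, Newcombe interval, counting error only). The difference was present in every class of control tag count, with shares of 24.1%, 43.4%, 46.6%, 44.3% and 17.5% at persisting sites from weakest to strongest and 12.8%, 15.8%, 14.4%, 11.5% and 9.67% at non-persisting ones. It was smallest in the strongest class and largest in the 3 middle classes. The 1668 peaks found in dKO but not after dexamethasone had a share of 35.0% (32.7 to 37.3), so nearness to gene ends went with presence in the dKO list whether or not the peak was called after dexamethasone. With 1 dKO library, a property of dKO livers and a property of that library cannot be told apart.

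**Figure D2:**
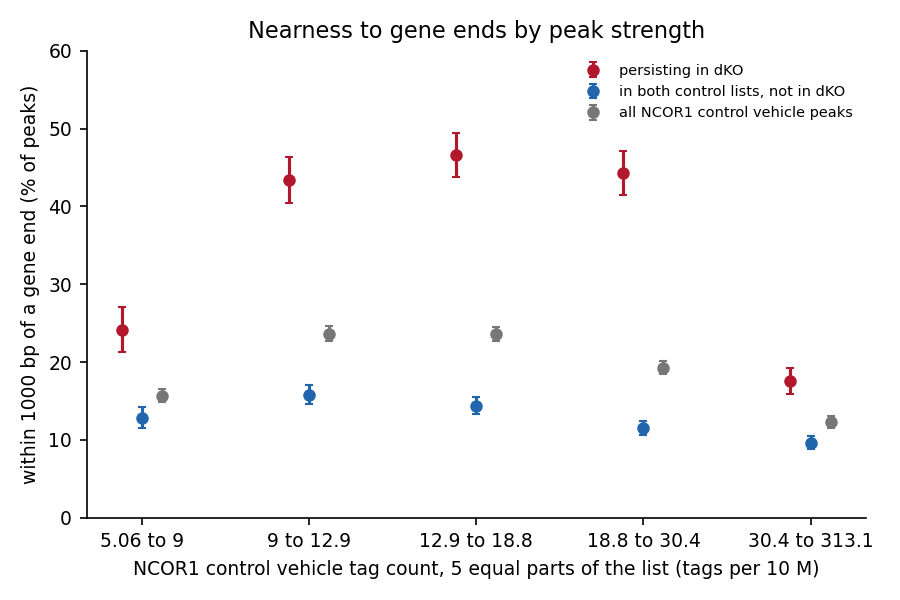
Percent of peaks within 1000 bp of a protein-coding gene end (y axis) in 5 classes of control vehicle tag count (x axis, tags per 10 M), for persisting sites, non-persisting sites and the whole list; bars are 95% Clopper-Pearson intervals. Persisting sites lie above non-persisting ones in each class, from 24.1% against 12.8% in the weakest to 17.5% against 9.67% in the strongest.

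The ratio varied with distance. Persisting sites within 1000 bp of a gene end had a median ratio of 0.74 and a 90% range of 0.25 to 1.47. Those farther away had 0.58 and a range of 0.12 to 2.47. This order did not hold in every class of control tag count. From the weakest to the strongest of the 5 classes, the median near a gene end was 1.22, 0.93, 0.75, 0.57 and 0.34. Farther away it was 1.62, 1.24, 0.83, 0.46 and 0.21. Near sites were thus lower in the classes up to 18.8 tags per 10 M and higher in those above. Only 27 of the 2170 near sites had a ratio of 2 or more, against 445 of the 4259 others. Grouped by ratio, the share near a gene end was 9.88% (8.20 to 11.8) at ratios up to 0.25, 28.8% (26.3 to 31.3) from 0.25 to 0.5, 55.6% (53.4 to 57.7) from 0.5 to 1, 33.5% (31.0 to 36.1) from 1 to 2, and 5.74% (3.82 to 8.25) above 2. Sites near gene ends were thus most common at intermediate ratios and least common at both extremes. Control strength moved with these groups too, with medians of 61.3, 29.8, 15.5, 10.1 and 9.0 tags per 10 M, and its part in the pattern was not tested.

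Annotated gene starts, whose strand is known, gave a like picture. Among the 6242 persisting sites on chromosomes with annotated starts in the promoter table, 34.4% (33.2 to 35.6) lay within 1000 bp of a start, against 18.9% of all control vehicle peaks and 12.5% (12 to 12.9) of non-persisting sites. Centres of 1208 persisting sites lay within 100 bp of a start, or 19.4%, where 4.85% of non-persisting ones did. The 2148 sites within 1000 bp belonged to 2111 genes, and their median position was 36 bp upstream, with 62.1% on the upstream side. From 1000 to 5000 bp the order was the other way, with 9.66% of persisting and 12.7% of non-persisting sites.

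**Figure D3:**
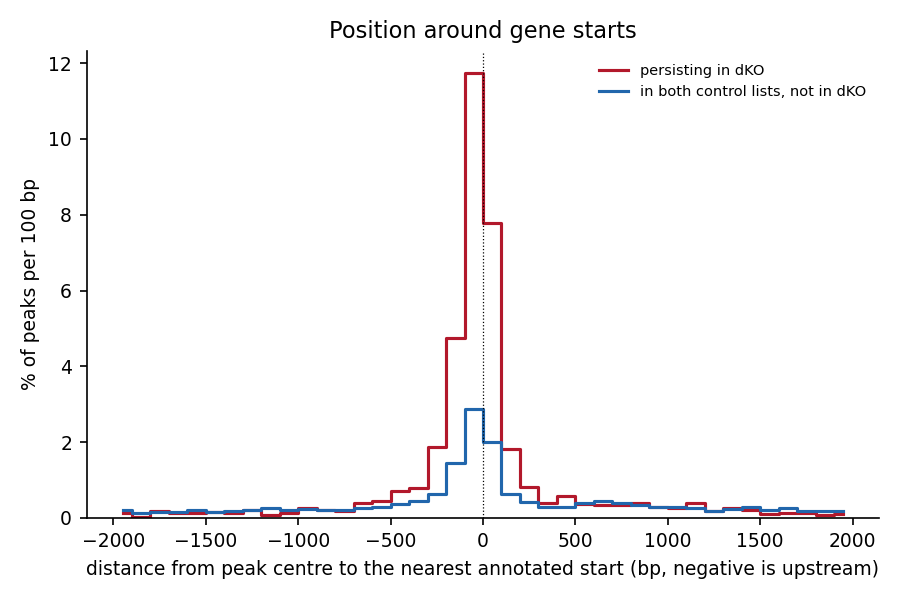
Percent of peaks per 100 bp (y axis) by distance from the peak centre to the nearest annotated start (x axis, bp, negative upstream), for persisting and non-persisting sites. The persisting sites form a narrow peak just upstream of the start, where their median position is 36 bp upstream, and both lines are low beyond 500 bp.

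Promoters that held a persisting site were rich in CG dinucleotides. Of 32851 RefSeq promoter windows of 300 bases, 2167 (2008 genes) overlapped a persisting site, and their median GC content was 62.3%, with an observed over expected CpG of 0.83. The 1764 windows with a non-persisting site and no persisting one had 58.0% and 0.68, and all windows had 52.7% and 0.38. The ETS motif was in 26.9% (25 to 28.8) of windows with a persisting site, 16.4% (14.7 to 18.2) of those with a non-persisting site and 8.86% of all windows. The CG-rich box of SP and KLF factors, GGGCGGG, was in 48.8%, 38.4% and 25.6%, and the cAMP response half-site TGACGT in 14.8%, 11.1% and 7.51%. The E-box was in 13.0% (11.6 to 14.5), 10.1% (8.78 to 11.7) and 7.15%. The nuclear receptor half-site was least common with a persisting site, at 14.7% (13.3 to 16.3), 20.2% (18.4 to 22.2) and 16.3%. Base composition differed between these groups of windows, and its part in the motif shares was not tested.

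Motif content also differed with the ratio. Windows with a persisting site above a ratio of 0.5 (1754) held an ETS motif in 29.6% (27.5 to 31.8) and a nuclear receptor half-site in 13.3% (11.8 to 15.02). In the 68 windows with a site at a ratio of 0.25 or less, 3 (4.41%, 0.919 to 12.4) had an ETS motif and 28 (41.2%, 29.4 to 53.8) a half-site, where 16.3% of all windows had one. The median GC content of these 68 windows was 55.7% and their observed over expected CpG 0.27. Windows with a site between these ratios were not counted apart. Control strength also differed with the ratio, as given above, and its part in these shares was not tested. The half-site of the GR element, AGAACA, was in 20.6% (11.7 to 32.1) of them, 11.6% of all windows with a persisting site and 19.0% of all windows. The CCAAT box was no more common in windows with a persisting site (31.6%) than in all windows (37.4%), nor was TATAAA (6.97% against 13.6%), and AAGATGG, a YY1 motif, was in 8.54% against 6.34%. Every motif was searched on both strands, and no motif contains another. A match gives only the letters of the window and may lie outside the called peak.

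GR was measured in other libraries than those that chose the sites. Of the persisting sites, 3335 overlapped a GR control vehicle peak, or 51.9% (50.6 to 53.1), against 41.3% of all control vehicle NCOR1 peaks and 53.4% (52.7 to 54.1) of non-persisting sites. In the GR control dexamethasone list the share was 56.2% (55.0 to 57.5), against 44.8% of all and 59.9% (59.3 to 60.6) of non-persisting sites. Persisting sites thus carried GR in control liver 1.56 (0.16 to 2.96) and 3.70 (2.31 to 5.09) percentage points less often than non-persisting ones. The direction was not the same in every class of control NCOR1 tag count. From weakest to strongest, GR control vehicle peaks were at 30.1%, 38.0%, 44.7%, 52.9% and 74.3% of persisting sites and at 25.6%, 38.0%, 47.4%, 60.3% and 74.9% of non-persisting ones. For GR control dexamethasone the shares were 46.2%, 46.2%, 50.1%, 52.4% and 73.3% against 47.4%, 52.7%, 56.9%, 61.7% and 71.3%. Persisting sites were thus higher for vehicle in the weakest class and for dexamethasone in the strongest. The separate intervals there were 27.1 to 33.2 and 24.0 to 27.4 for vehicle, persisting sites first. For dexamethasone they were 71.2 to 75.2 and 70.0 to 72.5. Such intervals can overlap where shares differ, and an interval of the difference was not computed by class. When peaks with centres within 400 bp counted as shared, the first difference had an interval that spanned 0 (persisting minus non-persisting -0.41, -1.76 to 0.93). With every NCOR1 list at the length of the shortest, its interval spanned 0 as well (-1.70, -3.65 to 0.21). A persisting site had no GR peak in any of the 4 lists in 1864 cases (29.0%), close to the 28.5% of non-persisting sites. Among all control vehicle NCOR1 peaks the share without GR was 42.9%.

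In dKO vehicle the order was the other way. GR peaks were at 43.6% (42.4 to 44.8) of persisting sites, against 26.8% of all control vehicle NCOR1 peaks and 33.1% (32.4 to 33.7) of non-persisting sites. Of the 3335 persisting sites with a GR control vehicle peak, 2288 (68.6%, 67.0 to 70.2) also had one in dKO vehicle, against 53.9% of all NCOR1 peaks with such a peak and 53.9% (52.9 to 54.8) of non-persisting sites, a difference of 14.7 percentage points (12.9 to 16.6). Within the 5 classes of NCOR1 strength the shares were 59.0%, 58.1%, 60.04%, 63.2% and 79.4% at persisting sites and 37.8%, 41.6%, 47.5%, 53.4% and 63.9% at non-persisting ones. Where both GR peaks were called, the dKO/control ratio of the GR tag count had a median of 0.80 at persisting and 0.68 at non-persisting sites. In dKO dexamethasone the shares were nearer, 41.2% (40.0 to 42.4) and 39.9% (39.2 to 40.5), against 30.0% of all. The GR and NCOR1 dKO vehicle lists come from livers of the same group, and whether they share animals is not given in the sources used here.

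**Figure D4:**
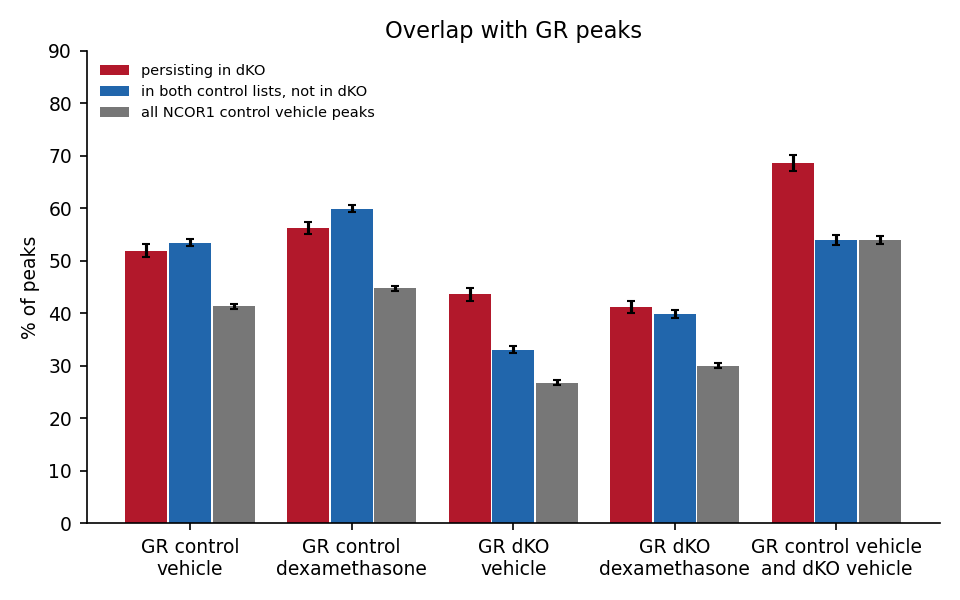
Percent of persisting sites, non-persisting sites and all NCOR1 control vehicle peaks (y axis) that overlap a GR peak in each of 4 lists, and, in the last group, percent of those with a GR control vehicle peak that also overlap a GR dKO vehicle peak; bars start at 0 and error bars are 95% Clopper-Pearson intervals. Persisting sites are the higher of the first pair of bars in dKO vehicle (43.6% against 33.1%) and in the last group (68.6% against 53.9%), and the lower in both control lists.

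GR overlap was highest at the lowest ratios in all 4 GR lists. At ratios up to 0.25, 84.7% (82.4 to 86.7) of persisting sites had a GR control vehicle peak. At ratios from 0.5 to 1, where most sites near gene ends lay, the share was 44.0% (41.8 to 46.1), and above 2 it was 34.9% (30.6 to 39.4). The other lists did not go on falling. From ratios up to 0.25 to those above 2, the shares over the 5 groups were 80.4%, 61.0%, 46.6%, 49.2% and 50.2% for GR control dexamethasone, 73.4%, 47.4%, 32.7%, 33.9% and 40.2% for dKO vehicle, and 73.6%, 46.8%, 28.9%, 30.7% and 35.5% for dKO dexamethasone. In these 3 lists overlap was lowest at ratios from 0.5 to 1. Control NCOR1 strength fell over the same groups, as given above. Among persisting sites, the highest GR control vehicle tag count was inside Klf13, which encodes a Krüppel-like transcription factor, with 724.8 tags per 10 M after vehicle and 777.6 after dexamethasone in control, and 433.8 and 536.4 in dKO. NCOR1 there was at 61.0, 53.0 and 21.8. A site 0.268 kb from Zfp36, which encodes the mRNA-destabilising protein tristetraprolin, had GR values of 381.9, 424.8, 175.2 and 274.2 and NCOR1 values of 108.6, 70.3 and 31.2. At both, GR was highest after dexamethasone in control and lowest in dKO vehicle.

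Other strong sites had no GR peak in any list. The strongest was inside Loxl4, a lysyl oxidase-like gene, with 234.6 tags per 10 M in control vehicle, 160.1 after dexamethasone and 50.4 in dKO. Zbtb16, a zinc-finger repressor gene known as a GR target, had one such site (184.3, 163.9 and 20.9) and another inside the same gene with the second highest GR control vehicle count of all persisting sites (533.1). The former was over 3 times as strong for NCOR1 as the latter, which had 50.4, 36.0 and 15.2.

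After dexamethasone the NCOR1 tag count was somewhat lower at most of these sites. The median dexamethasone/vehicle ratio of NCOR1 was 0.86 at persisting and 0.79 at non-persisting sites. It was 0.5 or less at 515 persisting sites (8.01%), against 12.2% of control vehicle peaks found after dexamethasone, and 1 or more at 2131 (33.1%, against 28.9%). Both lists of this ratio took part in the choice of sites, so no more is read from it.

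A small group was higher in dKO than in control vehicle and lower after dexamethasone. It was defined after the values were seen, as a dKO/control ratio of 1.5 or more with a dexamethasone/vehicle ratio of 0.5 or less, and has 31 persisting sites. Fam227b falls just outside, with a ratio of 1.45. At Ybx3, which encodes a cold-shock domain protein, NCOR1 was at 95.6 tags per 10 M in control vehicle, 29.4 after dexamethasone and 150.8 in dKO. GR at the same site was at 56.8 after vehicle and 29.0 after dexamethasone in control, and at 49.9 and 16.3 in dKO. Acacb, which encodes the mitochondrial acetyl-CoA carboxylase that limits fatty acid oxidation, had NCOR1 at 88.6, 28.7 and 144.6 and GR at 37.9, 26.0 and 47.5 with no peak in dKO dexamethasone. So in both genes the NCOR1 and GR values were low after dexamethasone and high after vehicle.

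Over the group, GR control vehicle and control dexamethasone peaks were both called at 21 of the 31 sites, and the tag count was lower after dexamethasone at all 21. Among all NCOR1 control vehicle peaks with both GR peaks it was lower at 25.6%, and among the other persisting sites at 26.4%. The median GR dexamethasone/vehicle ratio was 0.54 at the 21 sites and 1.22 at the other 2701 persisting sites with both peaks. The dexamethasone/vehicle ratio of NCOR1 was 0.5 or less at 515 of all 6429 persisting sites. Those of them without a rise in dKO were not compared apart. Which part of the definition the GR values go with was therefore not tested. GR dKO vehicle peaks were called at 25 of the 31 (80.6%, 62.5 to 92.5), against 43.4% of the other persisting sites and 26.8% of all NCOR1 control vehicle peaks. GR dKO dexamethasone peaks were called at 5 (16.1%, 5.45 to 33.7), against 41.3% of the other persisting sites and 30.0% of all. Of the 31 sites, 4 (12.9%, 3.63 to 29.8) lay within 1000 bp of a gene end, against 33.9% of the other persisting sites and 18.9% of all peaks. Because NCOR1 values defined the group, only its GR values come from libraries that took no part in that choice.

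The genes nearest to persisting sites were described by lists of known roles, with a site given to the protein-coding gene that held it or lay nearest within 100 kb. In all, 4444 genes had at least 1 persisting site, 60 had 5 or more, and 296 sites had no gene within 100 kb. Vps13d, which encodes a lipid transfer protein, had most (14 of its 30 control vehicle peaks), followed by Gse1 with 11 of 43. Arhgap26 had 8 of 33 and Prkce 8 of 47, and Col4a1 had 8 as well. Over the whole list 16.3% of control vehicle peaks persisted. Vps13d, Gse1, Arhgap26 and Prkce are 324, 353, 775 and 490 kb long, and Col4a1 is 114 kb long. At Col4a1, the collagen IV gene of basement membranes, 8 of 13 peaks persisted with a median ratio of 2.20. At Vps13d the median ratio was 0.41 and at Gse1 1.23.

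Lists of metabolic and hormone response genes of hepatocytes had shares of persisting sites on both sides of that of the whole list, 16.3%, which lay within the interval of every list given here. For gluconeogenesis genes 22 of 137 peaks persisted (16.1%, 10.3 to 23.3), and 18 of the 22 had a ratio of 0.5 or less. A site 6.48 kb from Sik1, a salt-inducible kinase gene, had NCOR1 at 132.2, 80.0 and 11.7 tags per 10 M in control vehicle, control dexamethasone and dKO. Fatty acid oxidation genes had 9 of 100 peaks (9.0%, 4.20 to 16.4), hepatocyte identity genes 19 of 170 (11.2%, 6.86 to 16.9) and lipogenesis genes 22 of 178 (12.4%, 7.91 to 18.1), with median ratios of 0.27, 0.30 and 0.43. These were strong sites, with control vehicle medians of 56.8, 39.7 and 52.05 tags per 10 M, and persisting sites of all genes above 30.4 had a median ratio of 0.22. Among the lipogenesis genes 1 of the 2 sites at Acacb had the highest ratio, 1.63, and the other had 0.44. The 30 of 166 sites of GR target genes (18.1%, 12.5 to 24.8) had a median ratio of 0.44, and the 25 of 165 of insulin signalling genes (15.2%, 10.1 to 21.5) one of 0.50. At Irs2, which encodes an insulin receptor substrate, the strongest site had NCOR1 at 158.1, 316.1 and 60.4, the highest value of the control dexamethasone list.

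Clock genes had 34 of 149 peaks (22.8%, 16.3 to 30.4, against 16.3% of all peaks, the lower end of that interval), in 17 of 21 genes, and no ratio reached 1. Beside Npas2, sites at the starts of Arntl and Nr1d1 kept much of their signal. Arntl, which encodes the clock activator BMAL1, had 100.4, 108.6 and 93.9 tags per 10 M in control vehicle, control dexamethasone and dKO (ratio 0.94, interval 0.75 to 1.17), with no GR peak. Nr1d1, which encodes the heme-binding repressor REV-ERBα that recruits NCOR1, had 92.8, 71.5 and 65.5 at its start (ratio 0.71), again without GR. By contrast a site inside Hlf, which encodes a clock-controlled bZIP factor, went from 99.0 in control to 10.3 in dKO, with GR at 28.4, 27.3, 20.1 and 21.9 in its 4 lists. Ratios near other clock gene starts included 0.35 at Bhlhe41, 0.31 at Nfil3, 0.48 at Ciart and 0.77 at Hlf. Bile acid and cholesterol genes had 28 of 151 peaks (18.5%, 12.7 to 25.7), among them 1 beside Cyp7a1, which encodes the enzyme that sets the pace of bile acid production. That site went from 67.0 to 8.87.

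Lists with many peaks at gene ends had larger shares than the 16.3% of the whole list, and of all 7462 control vehicle peaks within 1000 bp of a gene end 2170 persisted (29.1%). Ribosomal protein genes had 11 of 23 peaks (47.8%, 26.8 to 69.4), 15 of them near a gene end, and a median ratio of 1.10, and all 11 lay within 1000 bp of a gene end. Rps19, which encodes a subunit protein of the small ribosome, had 20.3, 21.5 and 25.5 tags per 10 M in control vehicle, control dexamethasone and dKO. These were weak to middling sites, with a median of 12.4 in control vehicle, and 1 of the 11 had a GR control vehicle peak. General transcription, splicing and chromatin genes had 19 of 63 peaks (30.2%, 19.2 to 43.0), with 20 of the 63 near a gene end and a median ratio of 0.81. Polr2a, the largest subunit of RNA polymerase II, had 28.4, 28.2 and 23.2 at its start. Immediate early and stress genes had 21 of 70 (30.0%, 19.6 to 42.1), with 21 of the 70 peaks near a gene end and a median ratio of 0.43. Ribosomal protein genes have many processed copies, and how such tags were placed is not given in the sources used here.

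Marker genes of cells other than hepatocytes were counted because whole liver holds them. Endothelial, stellate and cholangiocyte markers had 19 of 75 peaks (25.3%, 16.0 to 36.7, an interval that includes the 16.3% of all peaks), in 10 of 25 genes, with a median ratio of 2.08. The 10 genes were endothelial markers (Egfl7, Stab1, Stab2, Kdr, Tek, Erg, Vwf, Clec4g and Cdh5) and Sox9. No stellate marker of the list had a persisting site. The ratio was 1 or more at 15 of the 19 and 2 or more at 10, where 29.1% and 7.34% of all persisting sites were. At a site 53 bp from the start of Egfl7, an endothelial secreted factor gene, NCOR1 had 11.5 tags per 10 M in control vehicle, 13.7 after dexamethasone and 32.1 in dKO. Stab1, a scavenger receptor gene of sinusoidal endothelium, had 13.8, 16.3 and 29.2, and a site inside Kdr, the VEGF receptor gene, had 8.72, 9.21 and 24.3. Others went the other way. A site 50.2 kb from Erg, an endothelial transcription factor gene, had 51.8, 21.7 and 6.58, one outside Stab2, a paralog of Stab1, had 29.8, 27.8 and 7.44, and the sites at Sox9, a cholangiocyte marker, had ratios of 0.17 and 0.64. The other site at Erg had a ratio of 1.09, and those inside Stab2 had 2.45 and 3.27. Most marker sites were weak in control, with a median of 10.7. Persisting sites of all genes up to 9.0 tags per 10 M had a median ratio of 1.47, or 1.62 away from gene ends, and those from 9.0 to 12.9 had 1.05, or 1.24 away from gene ends. Kupffer cell and leukocyte markers had 3 of 13 peaks, with ratios of 0.71, 1.58 and 1.90, and neuronal genes, which liver does not use, had 0 of 16 (0 to 20.6%). Hepatocyte identity genes had a median ratio of 0.30 at a control median of 39.7. In whole liver, fewer cells of a type and less binding per cell cannot be told apart.

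**Figure D5:**
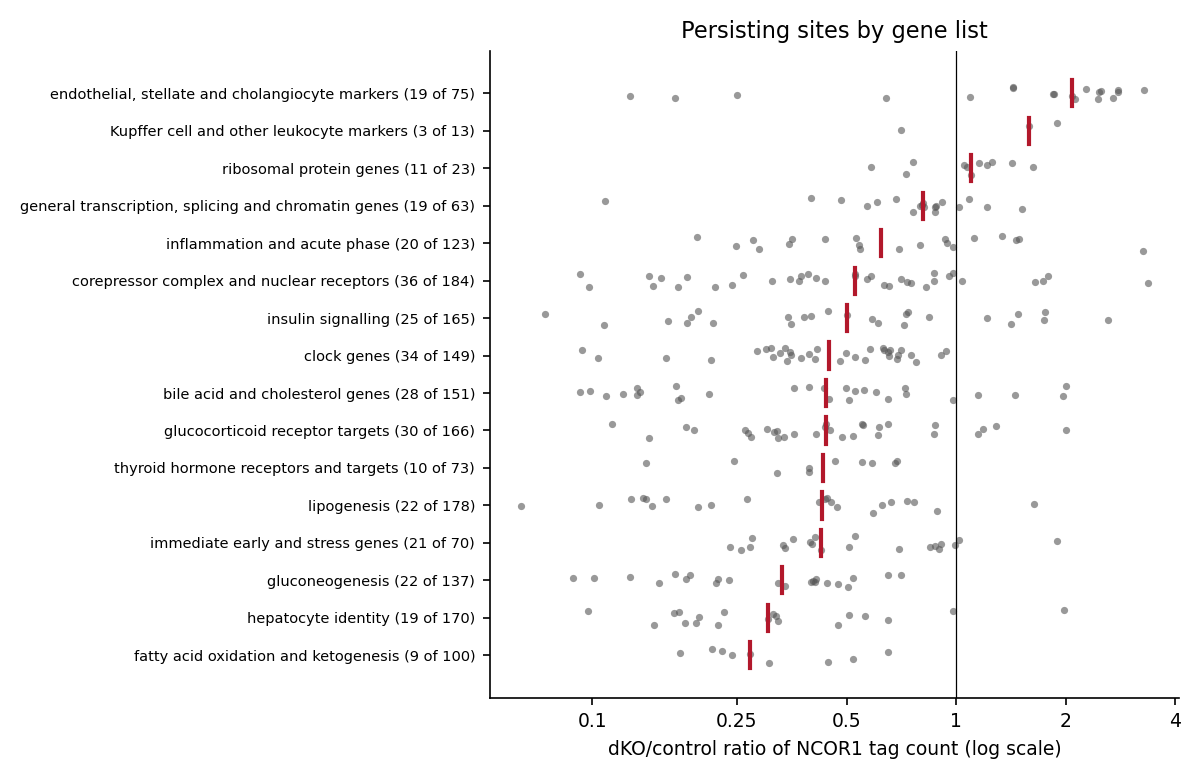
dKO/control ratio of NCOR1 tag count (x axis, log scale) of each persisting site, by gene list (y axis, with persisting sites and all control vehicle peaks of the list in parentheses); red bars are medians and the vertical line marks equality. Medians run from 0.27 for fatty acid oxidation and ketogenesis to 2.08 for endothelial, stellate and cholangiocyte markers, whose persisting sites lay at endothelial markers and Sox9.

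The edge of the rule was described with no test. Persisting sites that only just met it include those beside Rab28 and Rmnd5a, whose overlap with the dexamethasone or dKO peak was the smallest, and they had 7.03 and 65.0 tags per 10 M in control vehicle and 10.3 and 14.9 in dKO. Just outside were peaks at Tns1, Sertad2 and Galnt10, with control vehicle values of 7.03, 26.7 and 12.1, whose centres lay 200 bp from that of the missing dKO peak. There were 120 persisting sites with an overlap of 20 bp or less in at least 1 list and 100 peaks that missed by under 20 bp, with median control values of 14.9 and 15.2. For most sites the lists agreed far more closely: the median distance between centres was 24 bp for dexamethasone and 36 bp for dKO.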

How the data were processed

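The 13 libraries (12 immunoprecipitates and 1 input) are represented by 7 deposited peak lists, 1 per antibody and group, with replicates pooled. Per the submitters' processing notes, the mm10 build was used with bedtools 2.29.2, HOMER 4.11, BWA 0.7.17 and Trim Galore 0.6.4. HOMER findPeaks called peaks of 200 bp with a minimum distance of 400 bp, at least 4-fold over input and over the local 10 kb, and a p-value of at most 0.0001, per the file headers. GR lists used a tag threshold of 15 and NCOR1 lists a false discovery rate of 0.001, per the file headers, and, per the labels, only the NCOR1 and input libraries went through size selection. The headers mark the GR libraries alone as highly sonicated. The normalized tag count is a signal in tags per 10 M that the authors deposited. The findPeaks score is another deposited value and is not scaled to a common depth. Fold over input, local fold and clonal fold are ratios, and input tags and tags in the peak are signals, all deposited by the authors. The NCOR1 lists rest on 17.5 to 36.9 M tags and the GR lists on 27.5 to 31.9 M, which limits the weak peaks that can be called.

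Overlaps were computed from peak centres in Python 3.11.15 (pandas 2.3.3, SciPy 1.17.1, statsmodels 0.14.6) and checked against bedtools, with 0 of 236748 calls differing. Ratios divide the tag counts of overlapping peaks, and their intervals are exact and conditional on tags rounded to whole numbers. Gene ends (21887 protein-coding genes) and promoter windows come from RefSeq GRCm38.p6; the promoter table has no entries for 1 chromosome, whose 1240 peaks were left out of start distances. No test across samples was possible with 1 pooled list per group. Exons and introns were not analysed here.

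Members, gene lists and comparisons were chosen with earlier results of these data known. Named sites are the 8 highest in control and in dKO, the 8 highest and lowest ratios among sites at or above the list's median, the top genes of each list, the genes with most sites, 5 sites each without GR and with most GR, and the 3 nearest either side of the overlap limit; those given are drawn from these, and other named sites (at Arntl, Hlf, Cyp7a1, Polr2a, Rps19, Egfl7, Stab1, Kdr, Erg, Stab2, Sox9 and the printed promoters, among others) were chosen after their values were seen.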

Additional observations from a re-analysis of the deposited data

How the results depend on the processing

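No paired analysis was possible because each list pools the libraries of its group, and no replicate could be left out for the same reason. With at least 8-fold over input in every NCOR1 list there were 2720 persisting sites, and with every NCOR1 list at the length of the shortest, 3067. The latter setting also gave a median dKO/control ratio of 0.34 and a dexamethasone/vehicle ratio of 0.78. With the findPeaks score in place of the tag count the dexamethasone/vehicle ratio turned to 1.76; the score was 3.75 per normalized tag in the dexamethasone list and 1.81 in the vehicle list, so it is not scaled for depth. The gene end difference stayed above 0 in all 9 alternatives: it was 16.3 percentage points at 8-fold over input, 23.0 with centres within 400 bp, 17.2 with lists of equal length, 18.6 with an overlap of at least 100 bp and 18.7 within 5000 bp of a gene end. Standardised to 5 classes of tag count it was 21.3, and with annotated starts, an alternative chosen after seeing the data, 22.0. The difference in GR control vehicle overlap was -4.71 at 8-fold over input and -0.41 with centres within 400 bp, where its interval (-1.76 to 0.93) spans 0. It was -1.70 with lists of equal length, where its interval (-3.65 to 0.21) spans 0 too. The difference in GR peaks kept in dKO was 12.4 with lists of equal length and 15.8 when standardised to GR strength.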

Other observations

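On the autosomes between 14.5% and 18.2% of NCOR1 control vehicle peaks persisted. On chromosome X 51 of 574 did (8.89%, 95% Clopper-Pearson interval 6.69 to 11.5), and the lowest lower bound of any autosome was 12.7%. A GR peak was called in dKO vehicle and not in control vehicle at 514 of the 3094 persisting sites without a GR control vehicle peak (16.6%), against 9.24% of 9361 non-persisting sites. Among all NCOR1 control vehicle peaks without a GR control vehicle peak the share was 7.68%. All 4 GR lists had a peak at 1795 persisting sites (27.9%), against 23.8% of non-persisting and 17.7% of all control vehicle peaks.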
